A study of Mus musculus with 6 samples.

Results

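Expression of 52 mitosis, spindle and kinetochore genes was examined in liver sinusoidal endothelial cells (LSECs), which form the porous wall of the liver's smallest vessels. The genes were taken from the deposited gene table by symbol, and each of the 52 listed symbols matched 1 entry among 23472 named genes. Mitosis begins when the kinase Cdk1, bound to cyclin B, drives condensation of the chromosomes and assembly of the spindle. Kinetochores then attach the chromosomes to spindle microtubules, a checkpoint holds the cell until every chromosome is attached, and the anaphase promoting complex starts chromosome separation, after which the cell divides in its middle. Transcripts of these genes accumulate in late cell cycle and are scarce in resting cells, and the endothelium of an uninjured adult liver is largely at rest.

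Cells came from C57BL/6 mice aged 7 to 8 weeks, in a wild-type group and a group with an endothelial conditional knockout of Rbpj (RBPjcKO), and both groups had received tamoxifen. Rbpj is the transcription factor of the Notch pathway, and the tamoxifen served to switch that pathway off. The sources used here do not give the promoter that drove the recombinase or the way the cells were purified. Each group held 3 libraries, and named genes received 30958761 to 40459702 counts per library. The labels do not say that each library came from a separate mouse, so p-values reflect how much these libraries vary, which may be technical. Rbpj itself stood at 41.6, 46.9 and 45.5 CPM (counts scaled to library size) in wild-type libraries and at 17.0, 19.8 and 17.6 CPM in RBPjcKO libraries, a log2 fold change of -1.30 (SE 0.10). Each of 10 LSEC markers, among them Stab2 and Lyve1, was detected in every library, with a summed level of 23472 to 26841 CPM in wild-type and 22316 to 26626 CPM in RBPjcKO libraries. Of these markers edgeR called 1, Clec4g, which fell 1.85-fold in RBPjcKO cells, and it called 16.7% of all genes tested. Counting either direction, DESeq2 called 5, Stab1, Stab2, Clec4g, Cdh5 and Kdr, and 6 had an unadjusted p under 0.05 by edgeR. Shares over all genes are not given for DESeq2 or unadjusted p, so these counts have no background to be read against. The log2 fold changes of the 10 markers ran from -0.89 to 0.39, and 6 were above 0.

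Most of the mitotic genes rose in RBPjcKO cells. The question asked of each gene was whether its level differed between the genotypes. Of the 52 genes, 45 rose, 0 fell and 7 did not pass the test (Benjamini-Hochberg adjusted p under 0.05 over 14869 genes, by the quasi-likelihood test in edgeR). Among all genes tested, 9.0% were called higher and 7.74% lower. No mitotic gene was lower at an unadjusted p under 0.05 either, and DESeq2 and limma each called 0 lower. Called rises ran from 1.89-fold for Incenp to 9.57-fold for Cenpf. The median log2 fold change of the 52 genes was 2.45, against -0.005 over all genes tested. A called rise of at least 4-fold was seen for 38 of the 52 genes and for 1.20% of all genes. All 3 RBPjcKO libraries lay above all 3 wild-type libraries for 47 genes, an arrangement found in 20.7% of genes tested, and they lay below all wild-type libraries for 0 of the 52 genes, against 19.6% of genes tested. The 5 genes with overlapping groups were Plk4, Cenpa, Kif18a, Kif4 and Pttg1. All 52 genes passed the filter on low counts. The exceptions to passing it on wild-type counts alone were Cdc25c, Bub1, Ttk and Kif18a, which entered through their RBPjcKO counts. Of the other 48 genes 42 rose, with a median log2 fold change of 2.44.

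**Figure D1:**
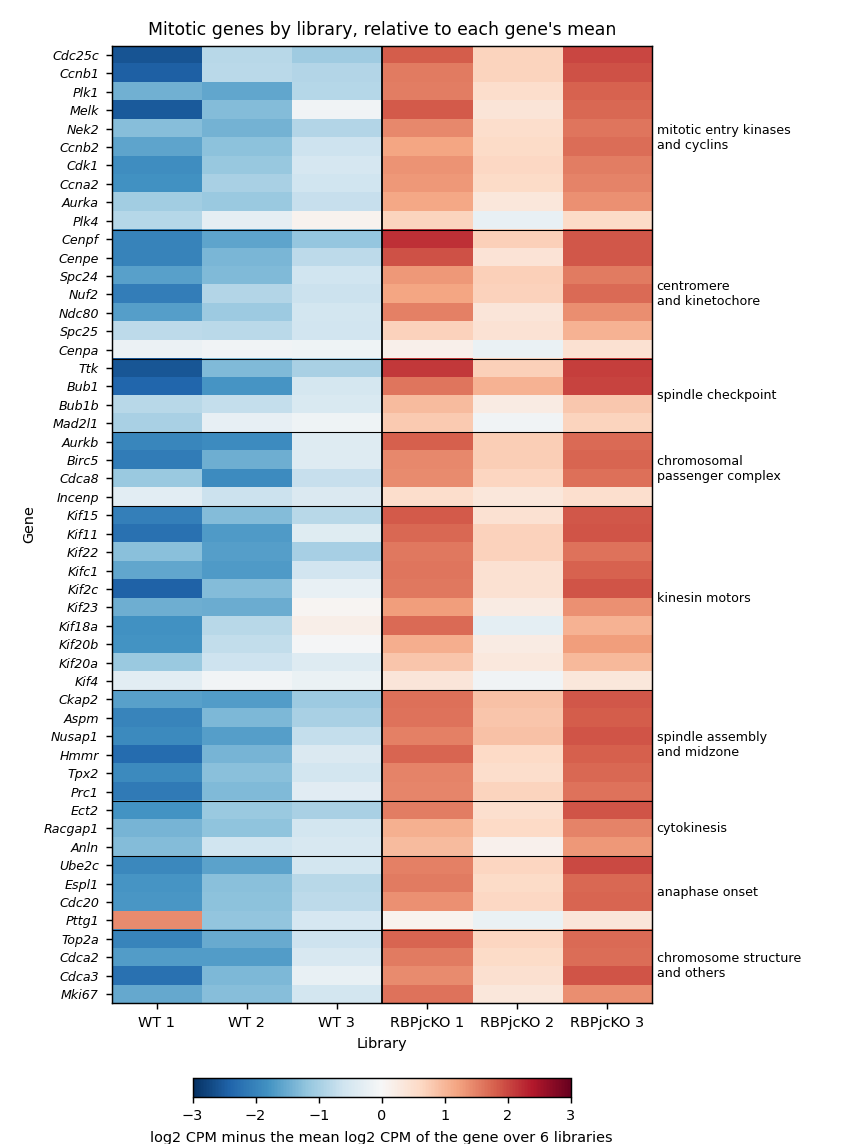
Level of each mitotic gene (rows, grouped by role) in each of the 6 libraries (columns), as log2 CPM minus that gene's mean over the libraries. RBPjcKO replicates 1 and 3 carry the highest levels of nearly every gene, RBPjcKO replicate 2 is the lowest of its group throughout, and Pttg1 departs from the others with a high level in wild-type replicate 1.

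Levels were low in wild-type cells. In RPKM, which scales counts by gene length and library total, the median of the genes' mean levels was 0.742 in wild-type and 3.05 in RBPjcKO libraries. The wild-type mean was under 1 RPKM for 31 genes, and the RBPjcKO mean was under 1 RPKM for 7. The summed level of the 52 genes was 168, 180 and 253 CPM in wild-type replicates 1, 2 and 3, and 869, 486 and 945 CPM in RBPjcKO replicates 1, 2 and 3. Thus the lowest RBPjcKO library stood 1.92-fold above the highest wild-type library, and the group means differed 3.83-fold. Since these are bulk samples, more cycling cells and more RNA per cycling cell cannot be told apart.

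The libraries of a group differed in the same direction at almost every gene. RBPjcKO replicate 2 was the lowest of its group for 52 of 52 genes, and replicate 3 was the highest for 38. In wild type, replicate 3 was the highest for 46 genes and replicate 1 the lowest for 41. The median ratio of the highest to the lowest library was 2.28 within wild type and 2.10 within RBPjcKO. Genes of one library are not independent, so these counts describe libraries and not 52 separate observations.

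Promoters of the group were described next. The genes were listed as known mitotic genes, so the shares below describe that list and not the change in RBPjcKO cells. Late cell cycle promoters are known for the cell cycle homology region (CHR), a short element near the start site bound by complexes of the MuvB core with E2F4, MYBL2 or FOXM1, and for CCAAT boxes, bound by the factor NF-Y. RefSeq windows (GRCm38.p6) from 250 bases before to 50 bases after an annotated start were found for 44 of the 52 genes, 46 windows in all. Ect2 and Prc1 had 2 overlapping windows each. An annotated start could lie inside the gene. The Kif2c window ended at 117179022 on the - strand, while the gene's span ended at 117182624. The CHR letters TTTGAA or TTTAAA, read on either strand, were present in 38 of the 46 windows (82.6%) and in 27.6% of all 32851 windows. Within 50 bases of the start on either side, 71.7% of the mitotic windows and 8.28% of all windows had them. CCAAT, on either strand, was present in 71.7% and 37.4%, and at least 2 copies in 23 of the 46 windows and 11.7% of all windows. A CHR match shared a base with a CCAAT match in 1 of the 46 windows. These matches describe the letters of the reference sequence and show no binding. Of the windows printed here, with CHR and CCAAT letters of either strand in capitals, those of Cenpf and Ttk belong to the largest rises and those of Cdc20 and Ube2c to the activation of the anaphase promoting complex. Cenpa is shown as a gene with these letters that was not called, and Nusap1 as a gene that rose with neither in its window.
Cenpf, chr1:189688037-189688336, - strand: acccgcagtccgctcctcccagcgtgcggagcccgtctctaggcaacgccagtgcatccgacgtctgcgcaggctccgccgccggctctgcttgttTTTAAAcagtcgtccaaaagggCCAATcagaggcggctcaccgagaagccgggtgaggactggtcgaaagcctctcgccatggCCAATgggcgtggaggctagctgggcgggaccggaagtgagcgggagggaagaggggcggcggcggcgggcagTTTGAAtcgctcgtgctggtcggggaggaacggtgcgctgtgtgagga
Ttk, chr9:83834439-83834738, + strand: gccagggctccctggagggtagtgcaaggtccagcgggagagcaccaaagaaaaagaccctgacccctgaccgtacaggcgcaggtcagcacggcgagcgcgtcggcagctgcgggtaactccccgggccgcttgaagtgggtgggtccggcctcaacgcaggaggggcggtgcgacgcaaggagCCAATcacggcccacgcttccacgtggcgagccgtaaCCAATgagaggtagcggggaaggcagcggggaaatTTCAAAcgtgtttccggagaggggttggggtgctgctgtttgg
Cdc20, chr4:118437294-118437593, - strand: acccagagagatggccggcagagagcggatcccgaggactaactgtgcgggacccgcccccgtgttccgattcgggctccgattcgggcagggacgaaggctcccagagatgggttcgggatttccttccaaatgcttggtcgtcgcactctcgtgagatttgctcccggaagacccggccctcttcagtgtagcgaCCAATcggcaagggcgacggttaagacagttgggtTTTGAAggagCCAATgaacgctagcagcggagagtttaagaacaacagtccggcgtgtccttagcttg
Ube2c, chr2:164769679-164769978, + strand: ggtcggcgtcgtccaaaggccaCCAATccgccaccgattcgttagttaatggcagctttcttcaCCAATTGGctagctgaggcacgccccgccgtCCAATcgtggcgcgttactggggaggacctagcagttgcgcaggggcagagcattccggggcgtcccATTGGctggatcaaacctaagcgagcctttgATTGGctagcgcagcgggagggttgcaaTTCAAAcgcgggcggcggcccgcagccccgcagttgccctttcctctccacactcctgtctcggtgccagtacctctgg
Cenpa, chr5:30666636-30666935, + strand: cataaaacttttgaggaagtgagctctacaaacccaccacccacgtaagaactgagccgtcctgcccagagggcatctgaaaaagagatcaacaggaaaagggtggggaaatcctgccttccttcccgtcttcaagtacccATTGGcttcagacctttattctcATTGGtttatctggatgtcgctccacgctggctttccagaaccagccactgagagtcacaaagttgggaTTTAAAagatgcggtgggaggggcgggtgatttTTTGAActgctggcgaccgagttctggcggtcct
Nusap1, chr2:119618048-119618347, + strand: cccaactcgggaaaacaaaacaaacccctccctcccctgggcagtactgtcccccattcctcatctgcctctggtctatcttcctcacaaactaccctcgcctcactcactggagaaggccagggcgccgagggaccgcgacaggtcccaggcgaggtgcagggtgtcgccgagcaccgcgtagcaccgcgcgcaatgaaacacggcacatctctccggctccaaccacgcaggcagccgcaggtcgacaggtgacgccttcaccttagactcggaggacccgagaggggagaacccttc

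**Figure D2:**
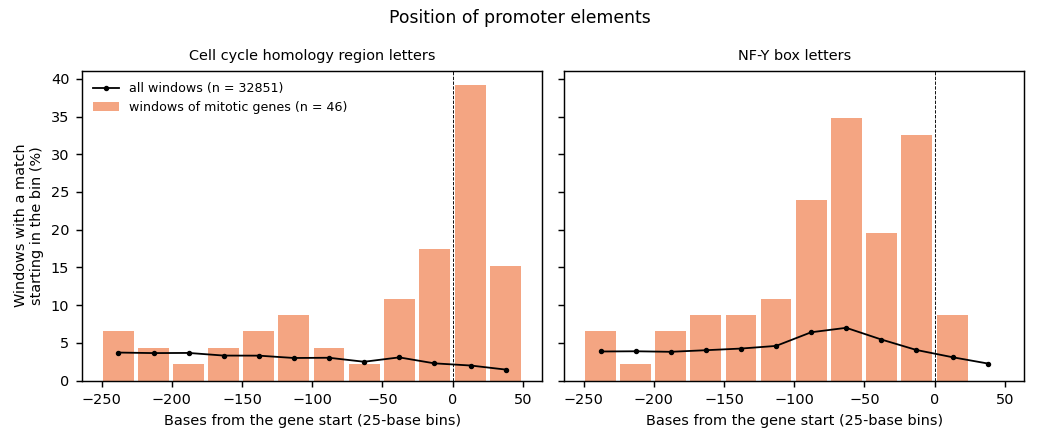
Share of promoter windows (y axis, %) in which a CHR match (left) or a CCAAT match (right) begins in each 25-base bin, by distance from the annotated start of the window in bases (x axis). Bars are the 46 windows of mitotic genes and the line is all 32851 windows. CHR matches were most frequent in the first 25 bases after the start, in 39.1% of the mitotic windows and 1.99% of all windows.

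Kinases and cyclins of mitotic entry rose in 9 of 10 cases. Cdk1, the kinase that starts mitosis, stood at 2.48, 4.07 and 6.36 CPM in wild-type and at 23.0, 13.7 and 25.9 CPM in RBPjcKO libraries, a 4.86-fold rise. Its partners moved alongside. Cyclin A2 (Ccna2) rose 4.62-fold, from 4.94 ± 1.94 to 22.8 ± 6.99 CPM (mean ± SD, n = 3 each). Ccnb1 and Ccnb2, which encode B-type cyclins, rose 6.38-fold and 4.95-fold. Cdc25c, the phosphatase that removes the inhibitory phosphates of Cdk1, had few counts. There were 2, 7 and 5 counts in wild-type and 45, 21 and 52 counts in RBPjcKO libraries, or 0.0546, 0.187 and 0.158 CPM against 1.17, 0.523 and 1.33 CPM. The groups did not overlap, and the 7.42-fold rise (log2 fold change 2.89 ± 0.57, SE; edgeR adjusted p = 0.0171) reached adjusted p = 0.0539 without wild-type replicate 2.

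Polo-like kinase 1 (Plk1), which acts at centrosomes, kinetochores and the midzone, rose 6.19-fold from 3.30 ± 0.902 to 20.4 ± 8.02 CPM. Nek2, a kinase that separates the centrosomes, rose 5.39-fold, and Aurka, the Aurora kinase of the spindle poles, rose 3.86-fold. Melk, a kinase of proliferating cells, rose 5.43-fold, but lost its call in 4 of the 6 fits without a library, with an adjusted p of up to 0.123 and a log2 fold change of 2.03 to 3.20, the highest value coming without wild-type replicate 3. Plk4, the kinase that licenses centriole duplication, did not pass the test. Its levels were 2.10, 3.13 and 4.08 CPM in wild-type and 5.99, 3.21 and 5.57 CPM in RBPjcKO libraries (log2 fold change 0.67 ± 0.33, SE; edgeR adjusted p = 0.196). RBPjcKO replicate 2 lay within the wild-type range of Plk4.

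Centromere and kinetochore genes included the largest rise of the 52. Cenpf (chromosome 1, 189640614 to 189688086, GRCm38), a large kinetochore and nuclear matrix protein of late cell cycle, stood at 1.34, 1.79 and 2.40 CPM in wild-type and 24.5, 8.89 and 19.5 CPM in RBPjcKO libraries. No RBPjcKO library came near the wild-type range, and the log2 fold change was 3.26 (SE 0.41, edgeR adjusted p = 0.0041). Cenpe (chromosome 3, 135212563 to 135273540), the kinesin that carries chromosomes to the spindle equator, stood at 0.709, 1.10 and 1.65 CPM against 10.8, 3.83 and 10.4 CPM, a 7.27-fold rise. As with Cenpf, RBPjcKO replicate 2 was well under the other 2 knockout libraries.

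All 4 subunits of the Ndc80 complex, the main microtubule coupler of the kinetochore, rose. The rises were 4.58-fold for Ndc80, 5.05-fold for Nuf2, 5.11-fold for Spc24 and 2.74-fold for Spc25. Spc25 had the highest wild-type level of the 4 in RPKM, 1.14, and Nuf2 the lowest, 0.304. Without wild-type replicate 2 the adjusted p of Ndc80 was 0.0641 and that of Nuf2 was 0.0509. Cenpa (chromosome 5, 30666902 to 30674826), the histone H3 variant that marks the centromere, was the most abundant of the 52 genes in wild type at 12.7 RPKM, and stood at 19.8, 20.6 and 20.3 CPM in wild-type and 25, 19.5 and 30.6 CPM in RBPjcKO libraries. The groups overlapped, and Cenpa was not called (log2 fold change 0.31 ± 0.16, SE; edgeR adjusted p = 0.22).

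Spindle checkpoint genes, whose products delay anaphase until all kinetochores are attached, rose in 3 of 4 cases. Ttk (chromosome 9, 83834689 to 83872390), the kinase that starts checkpoint signalling, stood at 0.136, 0.321 and 0.411 CPM in wild-type and 3.50, 1.32 and 3.41 CPM in RBPjcKO libraries. These are 5, 12 and 13 counts against 135, 53 and 133, and the log2 fold change was 3.24 (SE 0.54, edgeR adjusted p = 0.0101). Bub1, a kinetochore kinase brought there by Ttk activity, had 0.246, 0.375 and 0.886 CPM against 3.94, 2.66 and 5.26 CPM, a 7.94-fold rise that became 12.6-fold without wild-type replicate 3. For both kinases the highest wild-type library stayed under the lowest knockout library. Bub1b, which encodes the checkpoint protein BubR1, rose 2.56-fold, from 10.4 ± 1.41 to 26.6 ± 6.32 CPM. Mad2l1, the Mad2 protein that binds Cdc20, was not called (log2 fold change 0.91 ± 0.33, SE; edgeR adjusted p = 0.0948), although DESeq2 called it.

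The chromosomal passenger complex, which corrects faulty attachments and later directs cytokinesis, rose in all 4 subunits. Its kinase Aurkb stood at 1.23, 1.28 and 3.64 CPM in wild-type and 16.4, 7.92 and 15.3 CPM in RBPjcKO libraries, a 6.49-fold rise. Birc5, which encodes survivin, rose 5.70-fold, and Cdca8, which encodes borealin, rose 5.46-fold. Wild-type replicate 3 was the highest of its group for Aurkb, Birc5 and Cdca8. Without that library the rises of Aurkb and Birc5 were 10.5-fold and 8.56-fold, and without wild-type replicate 2 their adjusted p were 0.0535 and 0.0588. The scaffold subunit Incenp (chromosome 19, 9872297 to 9899533) stood at 24.1, 19.3 and 22.4 CPM against 43.1, 38.3 and 42.7 CPM. Its change was the smallest of the called genes and had the smallest error, with a log2 fold change of 0.92 (SE 0.11, edgeR adjusted p = 0.00393).

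**Figure D3:**
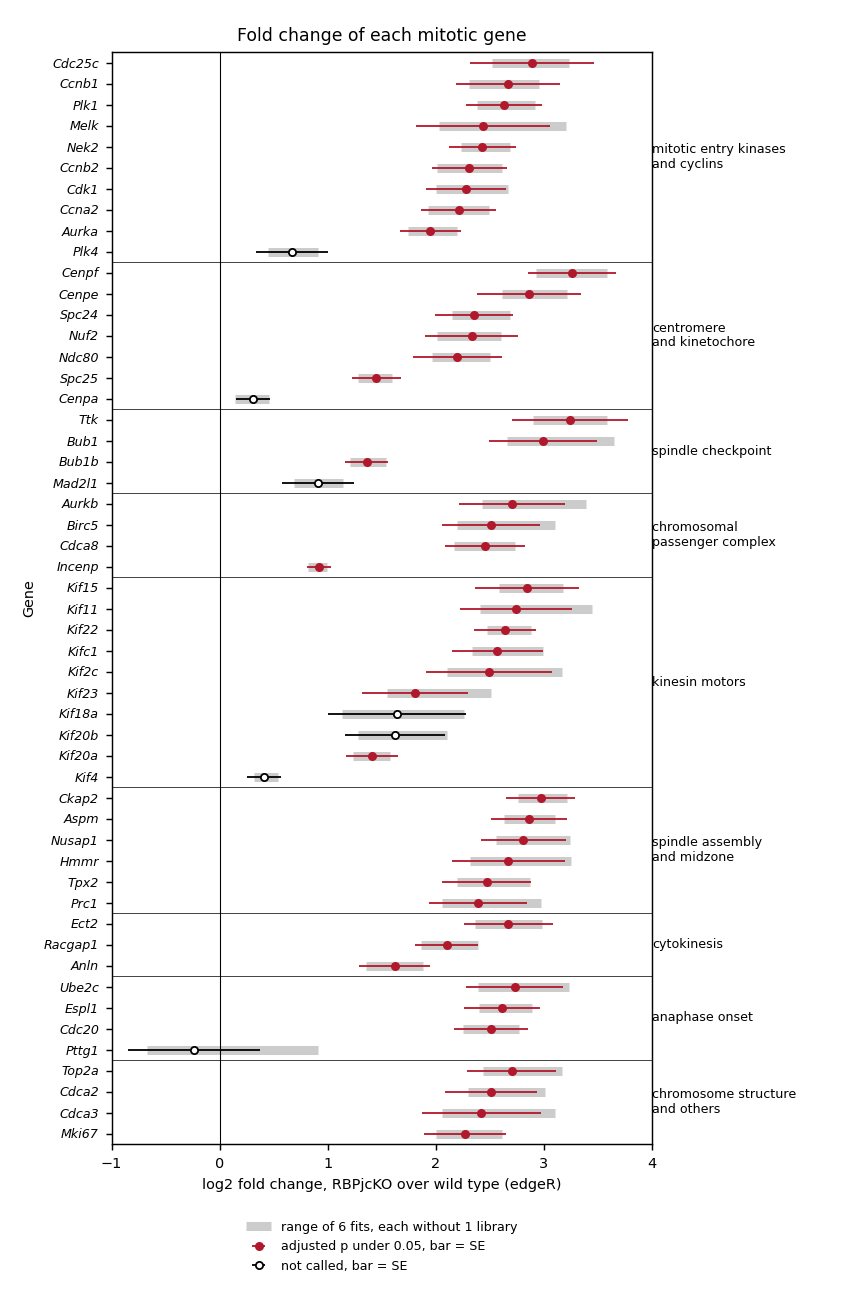
Log2 fold change of RBPjcKO over wild type (x axis) for each mitotic gene (y axis, grouped by role), with bars for the SE, filled points for an adjusted p under 0.05, open points for genes not called, and grey bars for the range over 6 fits that each left out 1 library. The 45 called genes lie between 0.92 and 3.26, and the grey bar of Pttg1 spans 0.

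Of 10 kinesin motor genes 7 rose. Kif11, the motor that pushes the spindle poles apart, stood at 1.06, 1.55 and 3.86 CPM in wild-type and 16.4, 8.04 and 18.6 CPM in RBPjcKO libraries, a 6.69-fold rise. Its groups were separate, yet the rise was 10.9-fold without wild-type replicate 3, and the adjusted p was 0.0649 without wild-type replicate 2. Kif15, which can stand in for Kif11, stood at 0.382, 0.642 and 0.886 CPM against 5.70, 2.19 and 5.80 CPM, a 7.18-fold rise. Kif22, a chromosome arm motor, rose 6.22-fold from 3.17 ± 0.685 to 19.7 ± 6.29 CPM. Kifc1, a minus-end motor that focuses spindle poles, rose 5.95-fold, and Kif20a, a midzone motor that brings passenger proteins to the cleavage site, rose 2.65-fold.

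Kif2c, a microtubule depolymerase of the centromere, rose 5.6-fold and Kif23, a motor of the central spindle, rose 3.52-fold. Without wild-type replicate 3 these rises were 8.97-fold and 5.68-fold. Both lost their call in 4 fits without a library, with an adjusted p of up to 0.102 for Kif2c and 0.131 for Kif23. The 3 kinesins that did not pass the test differed in size of change. Kif20b had a log2 fold change of 1.62 (SE 0.46, edgeR adjusted p = 0.0515) and was called by DESeq2, Kif18a had 1.64 (SE 0.64) and the chromokinesin Kif4 had 0.41 (SE 0.16). Kif18a, which dampens chromosome movements, had 7, 14 and 24 counts in wild-type and 84, 22 and 54 counts in RBPjcKO libraries, so that RBPjcKO replicate 2 lay within the wild-type range in CPM as well.

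All 6 genes of spindle assembly and the midzone rose, by 5.26-fold to 7.81-fold. Ckap2, a microtubule-associated protein of the spindle, stood at 1.06, 1.02 and 1.55 CPM in wild-type and 10.4, 6.03 and 11.9 CPM in RBPjcKO libraries. Aspm (chromosome 1, 139454773 to 139494088), a spindle pole protein, stood at 1.09, 1.71 and 2.21 CPM against 13.4, 7.74 and 15.2 CPM, a 7.26-fold rise. Nusap1, which bundles microtubules near chromosomes, stood at 0.873, 1.04 and 1.99 CPM against 9.35, 5.98 and 12.1 CPM, a 7.04-fold rise. None of these groups overlapped. Tpx2, which activates Aurora A at the spindle, rose 5.54-fold, Hmmr, a spindle protein also known as a hyaluronan receptor, rose 6.38-fold, and Prc1, the bundler of midzone microtubules, rose 5.26-fold. Hmmr and Prc1 reached adjusted p = 0.0689 and 0.0651 without wild-type replicate 2.

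Cytokinesis genes rose in all 3 cases. Racgap1, a subunit of centralspindlin, rose 4.30-fold from 6.80 ± 2.23 to 29.2 ± 8.85 CPM, and Ect2, the exchange factor that activates RhoA at the cleavage furrow, rose 6.36-fold. Anln, which encodes the furrow scaffold anillin, rose 3.07-fold, and its adjusted p was up to 0.0648 when wild-type replicate 1 or 2 was left out.

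Genes of anaphase onset rose in 3 of 4 cases. Ube2c (chromosome 2, 164769929 to 164772902), the ubiquitin-conjugating enzyme of the anaphase promoting complex, stood at 1.53, 1.93 and 3.99 CPM in wild-type and 16.7, 9.16 and 23.1 CPM in RBPjcKO libraries. Its 6.62-fold rise made it the second most abundant of the 52 genes in RBPjcKO cells, at 14.5 RPKM against 15.5 RPKM for Cenpa. Cdc20, the activator of the complex, rose 5.71-fold from 5.15 ± 1.67 to 29.4 ± 10.7 CPM, and Espl1, the separase that cuts cohesin, rose 6.11-fold. Pttg1 (chromosome 11, 43420248 to 43426248), the securin that holds separase inactive, was not called. It stood at 16.4, 2.70 and 4.33 CPM in wild-type and 6.58, 5.30 and 7.91 CPM in RBPjcKO libraries. Wild-type replicate 1, which was the lowest of its group for 41 mitotic genes, held the highest Pttg1 level, with 600 counts where the other wild-type libraries had 101 and 137. The log2 fold change of Pttg1 was -0.24 (SE 0.61, edgeR adjusted p = 0.807) and 0.91 without that library, also without a call.

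Among the remaining genes, Top2a, the topoisomerase that untangles sister chromatids, stood at 4.37, 6.02 and 11.2 CPM in wild-type and 57.3, 27.0 and 56.0 CPM in RBPjcKO libraries, a 6.51-fold rise. Mki67, the coat protein of mitotic chromosomes used as a proliferation marker, rose 4.83-fold from 14.4 ± 5.40 to 69.3 ± 28.1 CPM. Both were highest in RBPjcKO replicate 1 and lowest of that group in replicate 2. Cdca2, which targets a phosphatase to chromatin at mitotic exit, rose 5.71-fold. Cdca3, which takes part in the destruction of the Cdk1 inhibitor Wee1, rose 5.36-fold (8.58-fold without wild-type replicate 3) and lost its call in 4 fits without a library, with an adjusted p of up to 0.0983.

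Calls depended on the libraries for 13 of the 45 genes. The other 32 were called whichever of the 6 libraries was left out. Several of these came close to the threshold, such as Cenpe, Kif15 and Mki67, whose edgeR adjusted p reached 0.049. Nuf2, among the 13, reached 0.0509, so genes on the 2 sides of the threshold can differ little. Wild-type replicate 2 mattered most, since all 13 genes lost their call without it and 32 of the 52 genes were then called. Of the 13, 8 lost their call in that fit alone, and Melk, Kif23, Kif2c and Cdca3 in 4 fits. The count was 40 without wild-type replicate 1, 46 without wild-type replicate 3, 41 without RBPjcKO replicate 1, 45 without RBPjcKO replicate 2 and 41 without RBPjcKO replicate 3. Calls were lost over all genes too, from 1338 higher with all libraries to between 467 and 1069 in the fits without a library. Every fold change of the 45 called genes stayed above 0 in these fits. Some counts may hold reads of other genes. Ccna2, Cdc20, Kif20a and Nusap1 overlap a gene on the other strand, and Ccnb1, Ccnb2, Kif22 and Kif4 have named pseudogenes. The listed span of Snora19 reaches both Kif20b (chromosome 19, 34922358 to 34975731) and Kif11 (37376403 to 37421859). It was therefore not read as a gene overlap. Anln overlaps Mir680-2 on the same strand.

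Mitotic genes outside the 52 moved the same way in part. Of 102 further kinetochore, condensin, cohesin, spindle and regulatory genes, 52 rose, 0 fell and 50 were not called. For scale, 9.0% of all genes tested were called higher and 7.74% lower. Their median log2 fold change was 0.98. At an unadjusted p under 0.05, Mis12 and Wee1 were lower, and DESeq2 called 0 lower. Among 33 kinetochore genes 16 rose, led by Casc5 (now Knl1), the scaffold that recruits Bub1 (7.78-fold), Ska1, a microtubule-binding subunit of the outer kinetochore (7.60-fold), Sgol2, a protector of centromeric cohesin (6.20-fold), and Cenpm (5.88-fold). Among 15 condensin and cohesin genes 6 rose, led by Esco2, a cohesin acetyltransferase (10.5-fold), the condensin subunit genes Ncaph (5.32-fold) and Ncapg (4.86-fold), and Cdca5, which encodes the cohesin protector sororin (3.86-fold).

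Of 30 further spindle and centrosome genes 18 rose, led by Iqgap3 (9.60-fold), Troap (8.70-fold), the kinesin gene Kif18b (8.19-fold) and Cep55, which acts in the final cut between daughter cells (7.66-fold). Of 24 genes of entry, exit and transcription 12 rose. Fam64a (now Pimreg), a mitotic gene of proliferating cells, rose 14.6-fold from 1.41 ± 0.892 to 20.3 ± 8.74 CPM, and the kinase gene Pbk rose 5.73-fold. Foxm1 and Mybl2, which encode transcription factors that act on CHR promoters, rose 4.95-fold (5.80 ± 2.17 to 28.6 ± 9.18 CPM) and 3.86-fold (2.77 ± 0.246 to 10.7 ± 2.78 CPM). The count of 52 was 33 without wild-type replicate 1, 19 without wild-type replicate 2, 30 without RBPjcKO replicate 1 and 31 without RBPjcKO replicate 3. Sgol2, Cenpm, Esco2, Cep55 and Pbk lost their call in at least 1 of these fits, with adjusted p of up to 0.0694, 0.101, 0.0811, 0.0535 and 0.138.

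DNA replication genes, which act earlier in the cycle, had smaller changes. Of 40, 13 rose, 0 fell and 27 were not called. Over all genes tested 9.0% were called higher. The median log2 fold change was 0.49, against 2.45 for the mitotic genes. None was lower at an unadjusted p under 0.05, and DESeq2 called 0 lower. Cdc45, a subunit of the replicative helicase, rose 3.36-fold, Dtl 3.33-fold, Uhrf1, a reader of hemimethylated DNA, 3.15-fold and Mcm10 2.62-fold. No replication gene rose 4-fold. The 2 lists were not tested against each other. They also differed in wild-type level, with a mean sum of 633 CPM over the 40 replication genes and 200 CPM over the 52 mitotic genes. The part of this level difference in the fold changes was not tested. The count of 13 was 6 without wild-type replicate 1, 1 without wild-type replicate 2, 3 without RBPjcKO replicate 1, 4 without RBPjcKO replicate 3 and 8 under either upper-quartile scaling or library totals, and Dtl, Uhrf1 and Mcm10 reached adjusted p of 0.12, 0.08 and 0.136 when a library was left out. In the fits without a library, 467 to 1069 of all genes were called higher. A count of 1 among 40 genes does not stand above that general share.

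**Figure D4:**
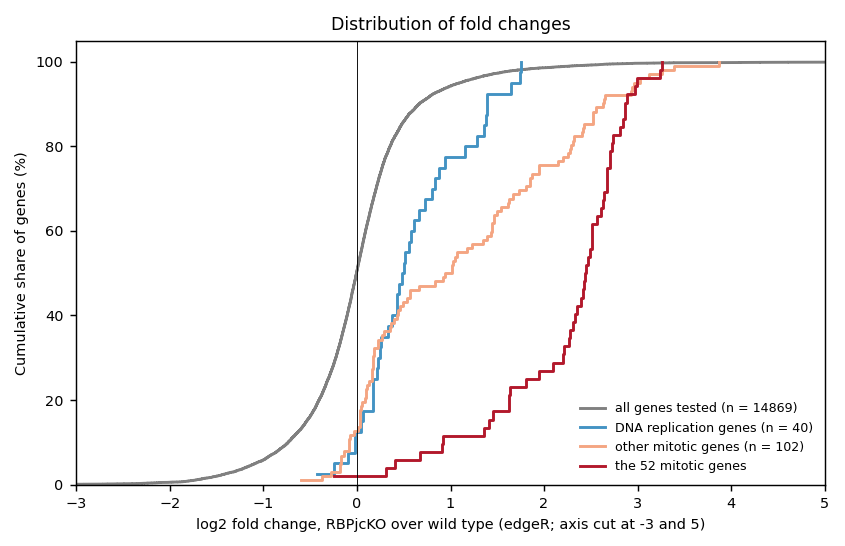
Cumulative share of genes (y axis, %) by log2 fold change of RBPjcKO over wild type (x axis) for the 52 mitotic genes, 102 other mitotic genes, 40 DNA replication genes and all 14869 genes tested. The medians were 2.45, 0.98, 0.49 and -0.005 in that order.

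Inhibitors of the cell cycle were also measured. Of 14 genes of CDK inhibition and quiescence 4 rose and 1 fell, with a median log2 fold change of 0.30. Among all genes tested 9.0% were called higher and 7.74% lower, so a single fall in a list of this size is near the general share. Cdkn2a, whose locus encodes the p16 and Arf proteins, rose 3.44-fold from 4.52 ± 0.539 to 15.6 ± 6.68 CPM, and its neighbour Cdkn2b rose 2.66-fold. Trp53, which encodes p53, rose 1.89-fold from 60.6 ± 6.28 to 115 ± 8.42 CPM, and Rbl2, which encodes the p130 pocket protein that represses mitotic genes in resting cells, fell 1.36-fold from 46.5 ± 1.89 to 34.2 ± 2.23 CPM. E2f4 was the fourth gene to rise. The rises numbered 1 without wild-type replicate 2 and 2 without wild-type replicate 3. Rbl2 lost its call in 4 fits, those leaving out replicate 2 or 3 of either genotype, with adjusted p of up to 0.06, Cdkn2a reached 0.0505, Cdkn2b 0.0762 and E2f4 0.143 when a library was left out.

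Markers of other cells that an LSEC preparation could hold were set beside the mitotic sums of 168, 180 and 253 CPM in wild-type and 869, 486 and 945 CPM in RBPjcKO libraries. Granulocyte and erythroid markers, 12 in all, summed to 549, 136 and 225 CPM in wild-type and to 447, 679 and 1109 CPM in RBPjcKO libraries. Of 10 such genes tested DESeq2 called 4 and 5 had an unadjusted p under 0.05, and 3 rose by edgeR, the neutrophil granule genes Mpo, Elane and Prtn3, whose sum went from 0.546, 0.482 and 0.633 to 3.68, 7.62 and 21.1 CPM. With a filter cut of 0.26 CPM, these wild-type sums are too low for all 3 to pass on wild-type counts alone. The sum also covers only genes that were called, so its rise follows from that choice. B cell markers summed to 3.77, 4.66 and 3.83 CPM in wild-type and 8.52, 12.2 and 8.09 CPM in RBPjcKO libraries, and Cd79a and Ms4a1 of this list rose.

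T and NK cell markers summed to 41.1, 47.3 and 41.4 CPM against 9.12, 37.1 and 7.42 CPM, with 0 of 7 called by edgeR, 1 at an unadjusted p under 0.05 and 0 by DESeq2. Kupffer cell and macrophage markers summed to 2368, 1216 and 2600 CPM against 1796, 592 and 1213 CPM, with 0 of 10 called by edgeR, 3 lower at an unadjusted p under 0.05 and 2 by DESeq2. Hepatocyte markers ran from 958 to 1894 CPM in wild-type and from 1287 to 3691 CPM in RBPjcKO libraries, with 3 of 10 called higher by edgeR, 6 by DESeq2 and 8 at an unadjusted p under 0.05. Cholangiocyte markers ran from 193 to 388 CPM and from 85.8 to 128 CPM, with 3 of 7 called lower by edgeR, 4 by DESeq2 and 6 at an unadjusted p under 0.05. Stellate cell and fibroblast markers ran from 1656 to 1870 CPM and from 1054 to 1588 CPM, with 2 of 10 called lower by edgeR, while DESeq2 called 3 and 3 had an unadjusted p under 0.05. For scale, edgeR called 9.0% of all genes tested higher and 7.74% lower. Shares over all genes are not given here for DESeq2 or unadjusted p. Among RBPjcKO libraries, replicate 2 was the lowest for the sums of mitotic genes, Kupffer cell markers and stellate cell markers. Replicate 3 was the highest for those of mitotic genes and of stellate cell, granulocyte, hepatocyte and cholangiocyte markers. T and NK cell, B cell and LSEC markers were highest in replicate 2 and lowest in replicate 3. The order differed among wild-type libraries. There replicate 3 was the highest for the sums of mitotic genes and Kupffer cell markers, and replicate 1 for granulocyte, hepatocyte and LSEC markers. Stellate cell, cholangiocyte, T and NK cell and B cell markers were highest in wild-type replicate 2. Of the 14 marker genes called by edgeR over all lists, Clec4g, Mpo and Prtn3 were called in all 6 fits without a library. The part of these cells in the rise of the mitotic genes was not tested.

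**Figure D5:**
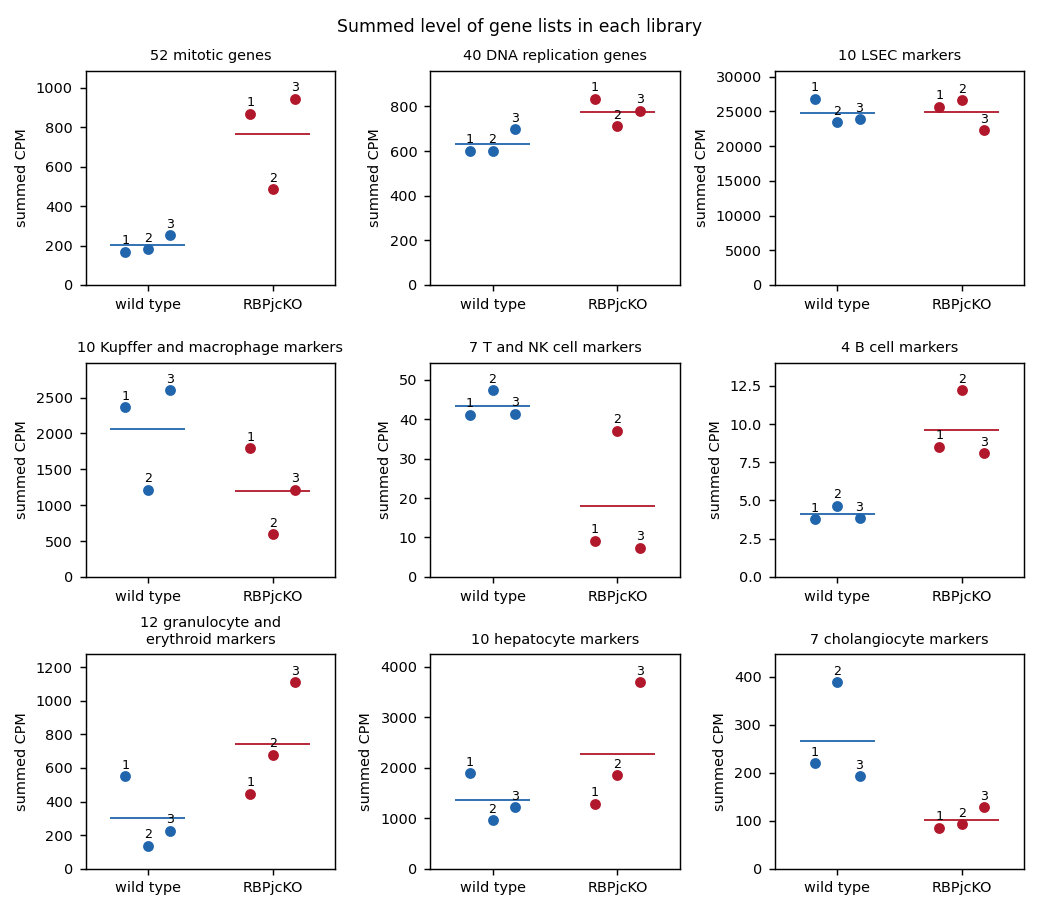
Summed CPM (y axis) of the 52 mitotic genes, of 40 DNA replication genes and of marker lists of LSECs and other cells in each library, with points numbered by replicate and a line at the group mean. The mitotic sum ran from 168 to 253 CPM in wild-type and from 486 to 945 CPM in RBPjcKO libraries, while the LSEC marker sums of the groups overlapped.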

How the data were processed

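TopHat2 2.0.13 placed the reads on mm10 (GRCm38), per the submitters' processing notes. How reads were then counted, on which annotation and with which strand setting, the sources used here do not say. The deposited table gives raw read counts for each entry and library, per the file headers. It also gives RPKM values that the authors made from those counts, with the column total as depth. Of 56825 entries 33353 were FANTOM3 cDNA clones and were left out, since clones can overlap genes and may share reads with them. Such sharing was not measured. In 27 entries a date stood for the gene name and was resolved by Entrez identifier.

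The 52 genes, the other gene lists and the tests were chosen with earlier results of these data known. Genes with low counts were removed by filterByExpr in edgeR 4.0.16 (R 4.3.3; minimum count 10 and minimum total 15). The rest were scaled by TMM and tested by quasi-likelihood, with Benjamini-Hochberg adjustment over all genes tested and a threshold of 0.05. CPM are TMM-scaled, and the SE of a log2 fold change was approximated by dividing its size by the root of its F statistic. Values in every library are given for called genes with the 12 largest changes, the 3 most abundant genes in RPKM and the largest rise and fall, and other genes shown in every library (Cdk1, Plk4, Aurkb and Kif18a in counts) were picked after their values were seen. Of each further list up to 4 called genes with the largest changes are named, and Stab1, Stab2, Lyve1, Cdh5, Kdr, E2f4, Mis12, Wee1 and the markers beyond this rule were also named after their values were seen. Alternatives were DESeq2 1.42.0, limma 3.58.1 on log2(RPKM + 1) and log2(RPKM + 0.1), other filters and scalings, a robust fit, clones included, an adjusted p under 0.01, and leaving out each library. Promoter sequences are from RefSeq, and CHR and CCAAT letters were searched with Python 3.11.15. The value of 1 marker gene is not reported here.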

Additional observations from a re-analysis of the deposited data

How the results depend on the processing

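The 45 rises among the mitotic genes numbered 45 to 47 under DESeq2, 2 other filters, 2 other scalings, the robust fit, both limma fits and clones included, and 0 were lower under any setting. An adjusted p under 0.01 left 23 mitotic genes, 16 other mitotic genes, 1 replication gene, 1 inhibitor higher and 0 lower, and 389 higher and 216 lower of all genes. The 389 are 2.62% of the genes tested, so 1 of 40 replication genes is near the general share. The median log2 fold change of the mitotic genes was 1.14 by limma on log2(RPKM + 1), where the added 1 shrinks changes of low genes. Replication genes called higher were 8 with upper-quartile scaling and 8 with library totals; the cause was not tested. Pttg1 changed sign to 0.05 by limma on log2(RPKM + 1), 0.14 on log2(RPKM + 0.1) and 0.91 without wild-type replicate 1, and ran from -0.67 to 0.91 over the fits without a library.

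Leaving out 1 library gave 32 to 46 mitotic genes higher and 0 lower, a median of 2.17 to 2.80, 19 to 46 other mitotic genes higher and 0 to 1 lower (Mis12), 1 to 11 replication genes higher and 0 lower, 1 to 4 inhibitors higher and 0 to 1 lower, and 467 to 1069 of all genes higher and 329 to 824 lower. These fits hold fewer samples. Wild-type levels of Cdc25c, Ttk, Bub1 and Kif18a rest on few counts, and 3 libraries per group limit the precision. No paired analysis was possible because the labels give no number or batch that links libraries of the groups.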
